A study of Mus musculus with 4 samples.

Results

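The subject is 1645 of 33198 cell barcodes recovered from needle aspirates (FNA biopsies) of mouse liver and profiled by droplet-based RNA sequencing of single cells. They were chosen by 2 measured values. Each carried at least 500 unique molecular identifiers (UMIs, 1 per captured RNA molecule), and more than 10% of these came from the 13 genes of the mitochondrial genome whose symbols start with mt-. The study's quality control discards such barcodes, so they take no part in its cell types. They made up 4.96% of all barcodes and are called high-mitochondrial barcodes here. They were set against 26825 kept cells, which had at least 500 UMIs, at least 300 detected genes and at most 10% mitochondrial UMIs. A further 4728 barcodes (14.2%) had at most 10% mitochondrial UMIs but under 300 genes and belong to neither class.

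The 4 libraries came from male wild-type C57BL/6J mice on the FPC diet, named for its fructose, palmitate and cholesterol and also holding trans-fat. All groups received it, at 1 of 2 cholesterol contents. P-LC24 was sampled after 24 weeks at 0.05% cholesterol and P-HC24 after 24 weeks at 1.25% cholesterol. I-LC32 was sampled at week 32 after 0.05% cholesterol throughout, and I-HC32 at week 32 after 24 weeks at 1.25% and 8 weeks at 0.05%. Each library pooled 12 biopsies, 4 from each of 3 mice, and the week 32 libraries came from the same mice as their week 24 counterparts. Where 4 values are given in a row without names, they stand for P-LC24, then P-HC24, then I-LC32, then I-HC32. With 1 library per condition and pooled animals, no test between conditions was made, and conditions are set side by side as values only. Red cells had been lysed and dead cells removed with microbeads before loading.

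Mitochondrial transcripts lie inside the organelle, behind membranes of their own, whereas most messenger RNA floats in the cytosol. A high mitochondrial share is widely read as a sign of a stressed, leaking or dying cell, because cytosolic RNA escapes through a damaged plasma membrane before the RNA held in mitochondria and in the nucleus. Cell types with many mitochondria or little cytosolic RNA can also show a high share. The liver's immune compartment holds B cells, T cells, natural killer (NK) cells, resident macrophages (Kupffer cells), monocytes, neutrophils and a few mast cells, each recognised by its own transcripts.

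High-mitochondrial barcodes numbered 154, 369, 273 and 849. The first library held 2.19% such barcodes (exact 95% interval 1.86 to 2.56), the second 4.64% (4.19 to 5.13), the third 2.78% (2.46 to 3.12) and the fourth 10.1% (9.48 to 10.8). At this limit both libraries from mice with a high-cholesterol phase had larger shares than both low-cholesterol libraries, and I-HC32 had the largest. That order was lost at a limit of 5%, where I-LC32 (37.3%) exceeded I-HC32 (31.5%). These intervals cover counting error only, and the difference has no replicate check. None of these barcodes occurred among the high-mitochondrial barcodes of another library, although 14 were also present in another library outside this class.

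The high share was a matter of few other transcripts more than of many mitochondrial ones. High-mitochondrial barcodes held a median of 1198, 1032, 1167 and 1611 non-mitochondrial UMIs, against 6170, 7153.5, 6850 and 8525 in kept cells. Their median mitochondrial UMI counts were 263.5, 299, 284 and 340, against 237, 378, 327 and 380. Mitochondrial counts were thus lower than in kept cells in 3 libraries and higher in P-LC24. Both counts enter the rule that chose the barcodes, so these values are a description and were not tested. The class contributed 0.630% to 2.41% of a library's UMIs, from 267885 non-mitochondrial UMIs in P-LC24 to 1777045 in I-HC32, so values for P-LC24 are the least precise.

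**Figure D1:**
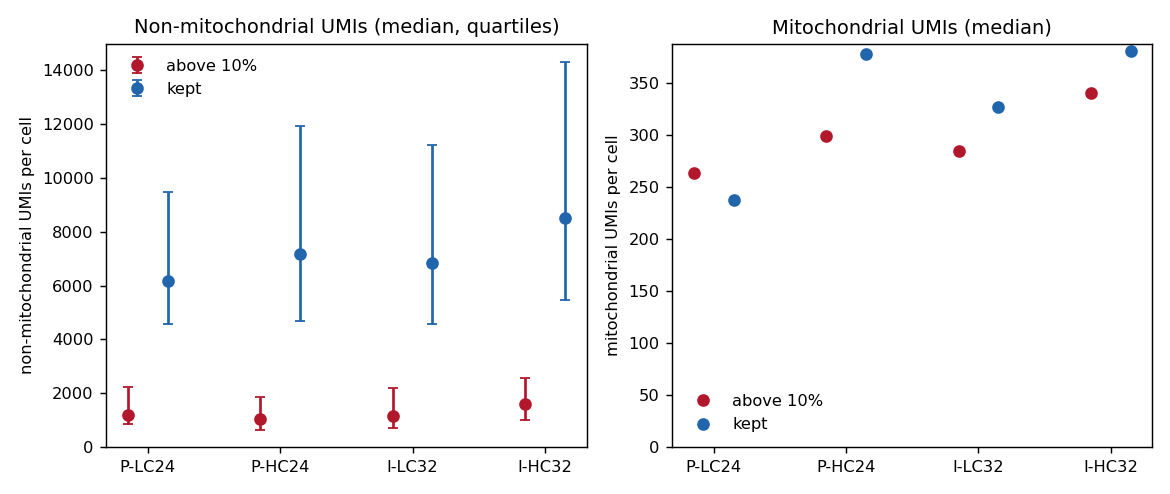
Non-mitochondrial UMIs per barcode (left, median with quartiles) and mitochondrial UMIs per barcode (right, median) for high-mitochondrial barcodes (above 10%, red) and kept cells (blue) in each library. Medians of non-mitochondrial UMIs lie between 1032 and 1611 in the red class and between 6170 and 8525 in the blue class, while the medians of mitochondrial UMIs overlap.

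Depth fell on both sides of the limit, in steps of unlike size. Over all libraries, the 424 barcodes with 8 to 9% mitochondrial UMIs had a median of 5734.5 non-mitochondrial UMIs. The 225 barcodes with 9 to 10% mitochondrial UMIs had a median of 3736 and the 127 with 10 to 11% had 2403. The 113 barcodes with 11 to 12% had 2106. In P-HC24 the step at the limit was steeper, from 7498 at 8 to 9% and 5611 at 9 to 10% to 1981.5 at 10 to 11%. At least 2 B cell genes were detected in 75.1%, 73.2% and 69.0% of the bins from 9 to 12% over all libraries. Most of the class was far from the limit: 569 barcodes (34.6%) had 10 to 15% mitochondrial UMIs, 446 had 15 to 20%, 417 had 20 to 30%, 183 had 30 to 50% and 30 had over 50%.

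B cell transcripts were the most widespread immune markers in the class. At least 2 of 6 B cell genes (among them Cd79a and Cd79b of the B cell receptor, the surface protein Ms4a1, the lineage factor Pax5 and the adaptor Bank1) were present in 59.1%, 65.6%, 67.4% and 66.7% of high-mitochondrial barcodes. Kept cells reached 66.5%, 72.5%, 71.0% and 75.8%, higher in 4 of 4 libraries, with a difference of -6.75 ± 2.31 percentage points (SD, n = 4 libraries, exact sign-flip permutation test, two-sided p = 0.13). With 4 libraries 0.13 is the smallest p that this test can give, so it cannot pass 0.05. Detection depends on depth, so each barcode was also thinned to 500 non-mitochondrial UMIs, which left 140, 314, 240 and 817 of the class. At that depth the B cell share was 51.4%, 55.7%, 56.3% and 44.9%, against 51.1%, 51.5%, 55.1% and 54.4% in kept cells. The thinned shares were higher than in kept cells in 3 libraries and lower in I-HC32, with a mean difference of -0.94 ± 5.96 points (exact p = 1).

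Which B cell genes carried the call differed between the classes. Among holders of the B cell list, Bank1 was detected in 96.7%, 90.1%, 95.1% and 97.4% of high-mitochondrial barcodes, close to the 97.9 to 98.8% of kept cells. Cd79a was detected in 81.3%, 77.7%, 69.6% and 54.6%, against 96.7 to 98.9% in kept cells. Cd79a detection thus fell off far more than that of Bank1, most of all in I-HC32. Both genes count towards the list that chose these holders, so the shares are a description. Depth was also unequal. The high-mitochondrial holders had a median of 1368, 1094.5, 1436 and 1709 non-mitochondrial UMIs, against 5747, 6887, 6997 and 8880. On the CPM scale, which divides counts by the class's total of non-mitochondrial UMIs in the library, Bank1 stood at 4058, 1852, 3422 and 3390 against 1676, 1050, 1737 and 1620, and Cd79a at 1273, 1499, 1149 and 538 against 1167, 1579, 1578 and 1494. Bank1 CPM was higher than in kept cells in 4 of 4 libraries, whereas Cd79a was lower in 3. Pax5 followed Bank1, with 590, 351, 623 and 512 CPM against 312, 178, 282 and 233. The share of lambda light chain among B-list barcodes with no other list and at least 3 light chain UMIs was 9.86%, 12.6%, 24.3% and 8.26%, against 8.13%, 7.49%, 18.6% and 7.80% in kept cells, and I-LC32 was highest in both classes.

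T cell and cytotoxic lists were held by smaller shares of barcodes than among kept cells. At least 2 of 7 T cell receptor complex and lineage genes were present in 13%, 11.9%, 12.5% and 6.60% of high-mitochondrial barcodes, against 23.9%, 19.2%, 26.3% and 19.2% of kept cells. The difference of -11.2 ± 2.87 points (n = 4) shrank to -3.81 ± 2.27 at 500 UMIs per barcode and stayed below 0 in 4 of 4 libraries at both depths (exact p = 0.13, the smallest possible). The summed level of the T cell list was 515, 621, 493 and 217 CPM against 924, 578, 858 and 435, so it was higher than in kept cells in P-HC24. For the cytotoxic list (granzymes Gzma, Gzmb and Gzmk, perforin Prf1, the granule protein Nkg7 and the chemokine Ccl5) the thinned shares were 2.14%, 0.955%, 2.92% and 0.612% against 8.31%, 4.32%, 7.98% and 3.69%. That difference of -4.42 ± 1.46 points was again negative in 4 of 4 libraries (exact p = 0.13). NK cell genes gave 0.714%, 0.637%, 0.417% and 0.122% at 500 UMIs, from 1, 2, 1 and 1 barcodes, against 2.92%, 0.899%, 1.05% and 0.408%. Ccl5 stood at 127, 186, 322 and 77.1 CPM against 1824, 781, 1658 and 513 in kept cells, so every library was lower.

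**Figure D2:**
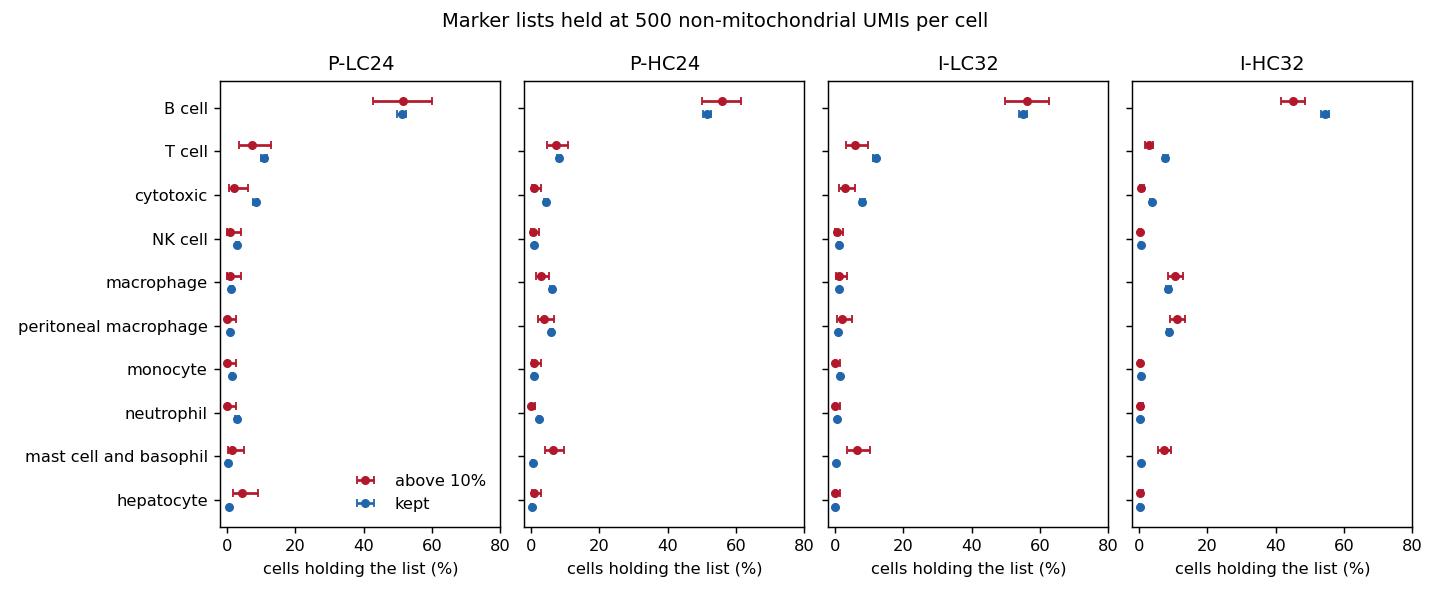
Share of barcodes (%) with at least 2 genes of each marker list after thinning to 500 non-mitochondrial UMIs, for high-mitochondrial barcodes (above 10%, red) and kept cells (blue), 1 panel per library; bars are exact 95% intervals, which cover counting error only. T cell and cytotoxic lists lie lower in the red class and the mast cell and basophil list lies higher in all 4 libraries, while B cell shares overlap except in I-HC32.

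Macrophage transcripts were concentrated in I-HC32. At least 2 of 7 macrophage genes (among them Adgre1, which encodes F4/80, and the complement C1q chains) were present in 2.60%, 5.69%, 2.20% and 15.6% of high-mitochondrial barcodes, against 5.82%, 13%, 6.75% and 17.0% of kept cells. At 500 UMIs the shares were 0.714%, 2.87%, 1.25% and 10.5% against 1.25%, 6.19%, 1.23% and 8.53%, so the direction differed between libraries (mean difference -0.459 ± 2.20 points, exact p = 0.75). Large peritoneal macrophage genes (Gata6, Prg4, Alox15, Ltbp1, Saa3 and Serpinb2) were held by 0, 15, 6 and 112 high-mitochondrial barcodes. The 112 in I-HC32 held a median of 3300 non-mitochondrial and 756.5 mitochondrial UMIs, against 19047 and 614 in kept holders. They carried Prg4 in 96.4%, Ltbp1 in 94.6%, Serpinb2 in 89.3% and Alox15 in 83.0%, against 92.5%, 79.3%, 81.9% and 83.1% of the kept holders. The transcription factor Gata6 was detected in 16.1% against 60.1%, and Clec4f, a Kupffer cell receptor, in none of the 112. Clec4f is only part of the Kupffer cell list of 6 genes. At least 2 of these genes were held by 57 high-mitochondrial and 515 kept barcodes of I-HC32. Cd79a, which macrophages should lack, was detected in 18.8% of the 112 barcodes with peritoneal macrophage genes and 41.1% of the kept holders. The part of RNA from other cells in these values was not tested.

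Monocyte and neutrophil genes were rare. The monocyte list was held by 1.30%, 1.08%, 1.47% and 0.471% of high-mitochondrial barcodes, against 5.93%, 4.77%, 5.89% and 2.91% of kept cells. The neutrophil list was held by 0, 2, 0 and 4 barcodes, against 3.70%, 5.0%, 1.16% and 2.57% of kept cells. A count of 0 allows a share of up to 1.95% in P-LC24 and 1.10% in I-LC32 (3 counts of the total). S100a8, an abundant neutrophil calcium-binding protein, stood at 11.2, 13.1, 0 and 181 CPM against 1128, 613, 92.2 and 95.2, and was lower than in kept cells in 3 libraries and higher in I-HC32.

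Mast cell proteases showed the opposite pattern. At least 2 of 7 mast cell and basophil genes were held by 2.60%, 10.3%, 8.43% and 19.3% of high-mitochondrial barcodes, against 1.42%, 6.89%, 1.82% and 14.3% of kept cells (difference 4.06 ± 2.32 points, higher in 4 of 4 libraries, exact p = 0.13). At 500 UMIs the shares were 1.43%, 6.37%, 6.25% and 7.22% against 0.156%, 0.464%, 0.243% and 0.572%. The difference was then 4.96 ± 2.48 points, higher in 4 of 4 (exact p = 0.13). The P-LC24 value rests on 2 barcodes, and at 1000 and 2000 UMIs no P-LC24 barcode held the list. Cma1, the mast cell chymase, stood at 37.3, 1132, 1726 and 784 CPM against 14.1, 54.3, 9.57 and 57.5, and Cpa3, a granule carboxypeptidase, at 82.1, 601, 648 and 285 against 5.53, 29.7, 4.23 and 22.0. Both were higher in every library, and P-LC24 was lowest.

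Mast cells of connective tissue and basophils share Cpa3 but differ in Cma1, Mcpt4 and Tpsb2 on the one side and Mcpt8 on the other, so the list was split along these genes after its values had been seen. Barcodes with Cpa3, Cma1, Mcpt4 and Tpsb2 but no Mcpt8 numbered 2, 20, 20 and 39 in the high-mitochondrial class and 2, 31, 5 and 55 among kept cells. The limit of 10% therefore removed 81 of 174 such barcodes (46.6%, exact 95% interval 39.0 to 54.3), by library 2 of 4, 20 of 51, 20 of 25 and 39 of 94. By contrast, all 42 barcodes with Mcpt8 and Cpa3 but no Cma1, the basophil combination, were kept (0 of 42, a count that allows at most 7.14%, taking 3 counts of the total), and no high-mitochondrial barcode had a UMI of Mcpt8. The high-mitochondrial mast barcodes held a median of 747, 1647.5, 810 and 1011 non-mitochondrial UMIs, against 5546, 5500, 3571 and 6570 in the kept ones. Histidine decarboxylase (Hdc), which makes histamine, was detected in 2, 20, 18 and 33 of them, the stem cell factor receptor Kit in 2, 18, 16 and 21, and the mast cell receptor Mrgprb1 in 2, 18, 18 and 21. B cell Cd79a was detected in 1, 5, 4 and 7 of them and in 1, 16, 3 and 33 of the kept ones. Their ribosomal protein mRNA made up 24.7%, 23.4%, 20.6% and 19.3% of non-mitochondrial UMIs, against 4.28%, 14.0%, 8.80% and 6.62% in the whole class.

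The holders of each list can also be counted from the other side, by the share that lay above the limit. Of 28470 high-mitochondrial and kept barcodes, 5.78% were above the limit, from 2.91% in P-LC24 to 10.4% in I-HC32, so a share pooled over libraries moves with the library that supplies most holders. Detection of a list also depends on depth, which was not equalised here. The class was shallower, which lowers the share of holders above the limit. Among holders of at least 2 genes this was 1083 of 20350 for B cells (5.32%), 154 of 6069 for T cells (2.54%), 15 of 1029 for NK cells (1.46%) and 53 of 3498 for the cytotoxic list (1.52%). It was 163 of 3115 for macrophages (5.23%), 133 of 1815 for peritoneal macrophages (7.33%), 14 of 1300 for monocytes (1.08%) and 6 of 817 for neutrophils (0.734%). Of the 133 peritoneal macrophage holders 112 came from I-HC32, where 10.4% of holders and 10.4% of all barcodes were above the limit, and in P-HC24 2.58% of holders were, against 5.07% of all. Holders of at least 2 mast cell and basophil genes were above the limit in 229 of 1962 cases (11.7%) and holders of at least 4 in 82 of 221 (37.1%). The stricter rule, which also asks for more depth, moved the share of B cell holders the other way, to 580 of 18908 (3.07%).

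**Figure D3:**
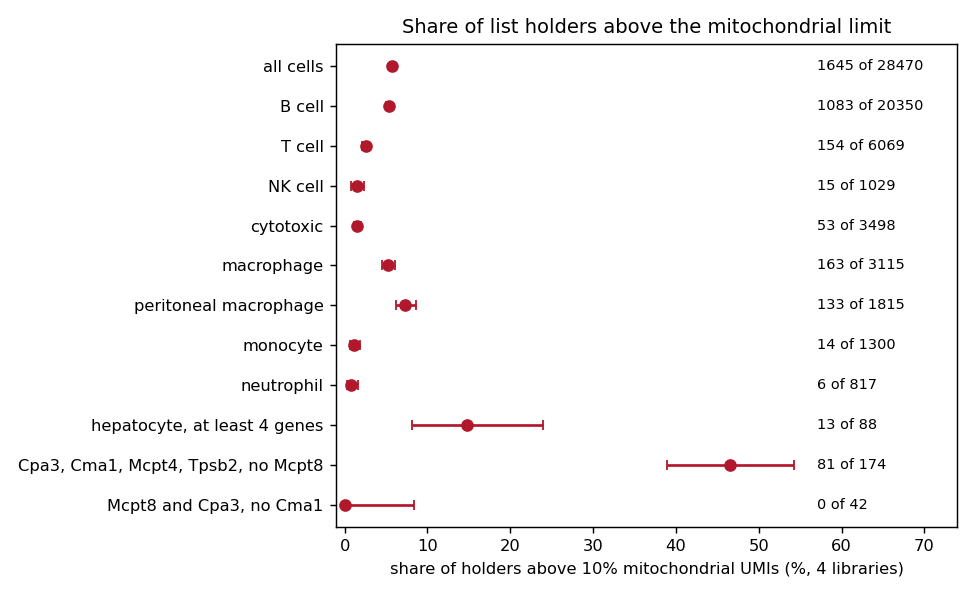
Share of list holders above 10% mitochondrial UMIs (%), all 4 libraries together, with exact 95% intervals for counting error and the number above the limit of all holders; lists need at least 2 genes unless the label says otherwise. Mast cell protease holders without Mcpt8 stand at 46.6% and hepatocyte-gene holders at 14.8%, against 5.78% of all cells and under 3% for T cell, NK cell, cytotoxic, monocyte and neutrophil holders. Depth was not equalised, and high-mitochondrial barcodes were shallower.

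Hepatocyte genes marked a very small, unusual group. At least 4 of 8 hepatocyte genes were present in 6, 3, 1 and 3 high-mitochondrial barcodes and 37, 17, 4 and 17 kept ones, so 13 of 88 holders (14.8%, exact 95% interval 8.11 to 23.9) were above the limit. With at least 2 genes, as for the other lists, the share was 20 of 288 (6.94%, 4.29 to 10.5), an interval that includes the 5.78% of all barcodes. Albumin (Alb) stood at 1109, 271, 107 and 33.8 CPM in the class against 17.6, 3.57, 0.978 and 4.07 in kept cells. The nuclear RNA Malat1 made up 0.0095%, 0.048%, 0% and 0.031% of the non-mitochondrial UMIs of these 13 barcodes, far below the 3.25 to 4.32% of the whole class. Haemoglobin and other erythroid genes, at least 2 of 6, were held by 68.8%, 35.5%, 71.1% and 23.1% of high-mitochondrial barcodes and 86.4%, 47.9%, 82.2% and 22.9% of kept cells. At 500 UMIs the order turned, with 25.0%, 12.7%, 31.2% and 4.90% against 8.76%, 2.77%, 8.18% and 1.27%, higher in 4 of 4 libraries (exact p = 0.13). Summed counts went the other way: in the edgeR comparison of all cells described below, all 6 erythroid genes were lower in the class (median log2 change -1.55). The part of free haemoglobin RNA in these shares and sums was not tested. Markers of platelets, bile duct, stellate and mesothelial cells were held by no high-mitochondrial barcode. Only 34, 4, 3 and 4 kept cells held these lists, too few to show that the class lacks them.

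Some barcodes matched no lineage or several. None of 7 lineage lists (B, T and NK cell, macrophage, neutrophil, mast cell and hepatocyte, with the erythroid list not counted) was held by 14.9%, 13%, 12.1% and 10.8% of high-mitochondrial barcodes, against 0.767 to 1.46% of kept cells. These barcodes were shallow, with a median of 749, 531.5, 597 and 920.5 non-mitochondrial UMIs. At least 2 of these lists were held by 0.649%, 8.67%, 4.03% and 19.1%, against 9.70%, 17.5%, 12.3% and 27.5% of kept cells. B cell and mast cell lists occurred together in 0, 21, 6 and 85 high-mitochondrial barcodes. Doublets were not removed, and their part in these combinations was not tested.

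The make-up of the remaining RNA differed strongly. Ribosomal protein mRNA, which is short, abundant and cytosolic, stood at 42850, 140100, 88020 and 66220 CPM in high-mitochondrial barcodes against 273500, 317500, 264600 and 259600 in kept cells. Malat1, a long noncoding RNA held in the nucleus, stood at 36340, 32500, 35660 and 43200 CPM against 16130, 10430, 13890 and 13560. The classes did not overlap for either measure. Ribosomal levels varied more than 3-fold among libraries of the class, whereas Malat1 levels varied little.

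The change ran along the mitochondrial share itself up to the bin of 15 to 20%. Over all libraries, ribosomal protein mRNA made up 22.7% of non-mitochondrial UMIs at 9 to 10% mitochondrial UMIs, 16.2% at 10 to 11%, 12.2% at 11 to 12% and 5.57% at 15 to 20%. Malat1 rose over the same bins from 1.86% to 2.69%, 3.29% and 4.18%. At 20 to 30% and 30 to 50% ribosomal mRNA stayed level, at 5.6% and 5.7%, and Malat1 stood at 4.9% and 5.0%. Beyond 50% mitochondrial UMIs, in 30 barcodes, ribosomal mRNA was back at 9.70% and Malat1 at 3.09%. The bins are not independent of the limit and were not tested.

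**Figure D4:**
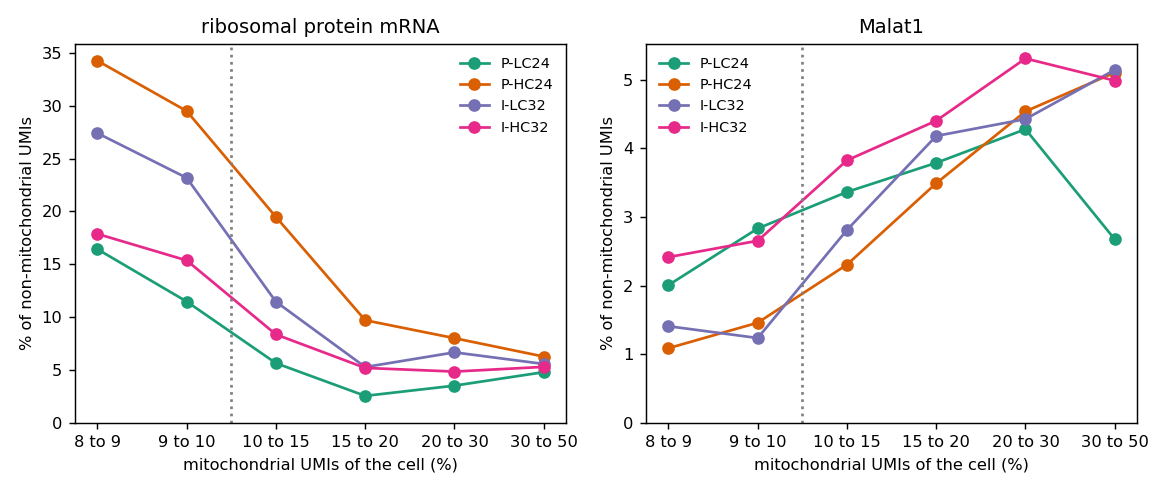
Ribosomal protein mRNA (left) and Malat1 (right) as a percentage of non-mitochondrial UMIs, summed over the barcodes of each bin of mitochondrial share, for the 4 libraries; the dotted line marks the limit of 10%. From the bins of 8 to 9% to those of 15 to 20% ribosomal mRNA declines in every library. Malat1 is higher at 15 to 20% than at 8 to 9% in every library, with a dip at 9 to 10% in I-LC32. In the bin of 30 to 50% Malat1 turns down in P-LC24, where it holds 6 barcodes, and slightly in I-HC32.

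Summed counts of both classes in the 4 libraries were compared gene by gene (edgeR quasi-likelihood test with library as a term, Benjamini-Hochberg adjustment). Fold changes below are high-mitochondrial over kept, on the log2 scale, relative to trimmed-mean scaling (TMM) of non-mitochondrial counts. Of 14865 genes tested, 1735 (11.7%) were higher and 3304 (22.2%) lower at an adjusted p below 0.05, and the median gene stood at -0.07. Scaling to total non-mitochondrial UMIs instead moved the median gene to 0.58 and the split to 5773 higher and 1622 lower, so directions of genes near the median depend on the scaling. In all cells, the lists below keep the direction of their median under TMM, DESeq2 size factors and total scaling unless stated. The 4 libraries came from 2 pools of 3 mice, each sampled at both times, whereas the edgeR and the sign-flip tests treat them as 4 independent libraries. The sign-flip p-values rest on the differences of these 4 libraries. Where all 4 share a sign, the p is the smallest possible whatever their spread. The edgeR p-values rest on dispersion estimates that borrow from other genes. They can be far smaller than the spread of 1 gene over the libraries would give, as for Cma1 in B-marker cells below. Neither kind takes account of the shared mice.

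Genes of the translation and energy machinery were lower nearly without exception. All 80 ribosomal protein genes tested were lower, with a median of -2.48. Of 82 nuclear genes for oxidative phosphorylation subunits, the partners of the mitochondrially encoded subunits, 78 were lower and none higher (median -1.91). Cox4i1, the member with the highest level, stood at 205, 292, 255 and 228 CPM against 496, 667, 585 and 640 (log2 change -1.94 ± 0.15 SE, edgeR adjusted p = 1.3e-07). All 8 abundant cytosolic mRNAs were lower (median -2.32), including Tmsb4x, an actin-binding peptide, at 1112, 3656, 2595 and 1978 CPM against 8573, 9159, 9680 and 7502. Of 13 glycolysis genes 10 were lower (median -1.47), led in level by Gapdh.

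Stress and death lists held few genes called higher. Of 7 heat shock genes 6 were lower (median -1.56), Hspa8 standing at 276, 446, 564 and 593 CPM against 909, 1149, 1072 and 1749. Of 10 immediate early genes, which respond within minutes to stimulation and tissue handling, 8 were lower (median -1.15). Among 14 apoptosis genes 7 were lower and 1 higher (median -0.74). Bax, which opens the outer mitochondrial membrane, fell by 1.81 on the log2 scale (SE 0.16, edgeR adjusted p = 2.1e-07), and Bcl2, its antagonist, was the member called higher (0.41 ± 0.16, edgeR adjusted p = 0.0495). Bcl2 was not called when P-HC24, I-LC32 or I-HC32 was left out. Of 12 genes that maintain and express the mitochondrial genome 4 were lower and Polg2 was higher, and of 9 mitochondrial chaperone genes 5 were lower and none higher. The median of the 12 genome maintenance genes turned from -0.31 to 0.34 under total scaling. Of 7 integrated stress response genes only Atf4 was called, and lower, a call lost under total scaling. The median of that list turned from -0.04 to 0.06 with DESeq2 size factors and to 0.61 under total scaling.

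Of 3 nuclear-retained RNAs Malat1 was called higher under TMM (0.81 ± 0.26, edgeR adjusted p = 0.02), and 2 of 3 were with DESeq2 size factors and 3 of 3 under total scaling. Under TMM that list had no call when P-HC24, I-LC32 or I-HC32 was left out. Neat1, a scaffold of nuclear bodies, stood at 246, 416, 358 and 790 CPM against 163, 224, 184 and 288, with a log2 change of 0.36 ± 0.15 (edgeR adjusted p = 0.086).

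Immune lists in this fit repeated the order seen in the shares, with which they share cells. Of 7 T cell genes 6 were lower (median -1.40), as were all 6 NK genes (-2.02) and all 6 cytotoxic genes (-1.98), among them Ccl5 at -3.34 ± 0.24 (edgeR adjusted p = 1.1e-07). All 6 monocyte genes (-1.83) and 3 of 6 neutrophil genes (-2.21) were lower, and all 6 neutrophil genes were called without I-HC32. Of 6 B cell genes Cd79a and Cd79b were lower and Pax5 higher, with a median of -0.05 that turned to 0.06 with DESeq2 size factors and to 0.60 under total scaling. Of 8 MHC class II genes 4 were lower (median -0.54), but under total scaling 3 were higher and the median was 0.10. Of 7 macrophage genes 4 were lower and Mertk, a receptor for the uptake of dying cells, higher (median -1.07). When only barcodes with 1000 to 5000 non-mitochondrial UMIs of both classes were compared, all 7 macrophage genes were higher (median 2.24), as were 5 peritoneal macrophage genes (3.40). Kept macrophage-list barcodes had a median of 13165, 18034, 13427 and 18850 non-mitochondrial UMIs, above this window.

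The genes with the largest increases included genes of liver parenchyma and the mast cell receptor Mrgprb1. Cyp2e1 (chromosome 7, 140343652 to 140355167, GRCm39), a cytochrome that oxidises ethanol, stood at 358, 26.1, 2.11 and 5.63 CPM against 1.56, 0.289, 0.0611 and 0.121 (log2 change 6.13 ± 0.50, edgeR adjusted p = 1.5e-07). P-LC24 was highest by far, with 6 of the 13 hepatocyte-gene barcodes. The secreted liver proteins Ahsg (5.25), Alb (4.87), Apoa1 (4.41), Ttr (4.36) and Apoa2 (4.35) followed. Mrgprb1 (chromosome 7, 48093861 to 48106093) stood at 26.1, 76.8, 94.7 and 27.6 CPM against 0.404, 2.84, 0.260 and 1.75 (4.87 ± 0.57, edgeR adjusted p = 3.4e-06). The protease Adamts9 (4.88), the heparan sulfate sulfotransferase Hs6st2 (4.71) and the monoamine oxidase Maob (4.52) completed the 10. By list, 7 of 8 hepatocyte genes were higher (median 4.17) and Ass1, a urea cycle enzyme, lower, while 6 of 7 mast cell and basophil genes were higher (median 3.85) and Mcpt8 lower. Without barcodes holding the mast cell or hepatocyte list, no hepatocyte gene was called higher (median -0.18), and 4 mast cell genes still were (median 1.74). Leaving out holders caps both lists at 1 gene per barcode at any depth, so these values are not independent of that rule.

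The 10 genes with the largest decreases all lacked a UMI in the class. Mmp8 and Ltf, a collagenase and an iron-binding protein of neutrophil granules, were at least 8.00-fold and 7.92-fold lower on the TMM scale, taking 3 counts over the class as the bound, and at least 5.08-fold and 5.03-fold lower under total scaling. Ltf stood at 9.08, 3.12, 1.87 and 6.47 CPM in kept cells. Bounds for Nefh, Scnn1a, Cox6b2, Mcpt8, Dnph1, Kremen2, Spaca1 and Bex2 lay between 1.93-fold and 3.45-fold (TMM), or 1.23-fold and 2.19-fold under total scaling. Those of Spaca1 and Bex2 lost their call under total scaling.

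To hold the lineage still, the comparison was repeated in B-marker cells, which held at least 2 B cell genes and fewer than 2 of the T cell, macrophage, neutrophil and erythroid lists. The high-mitochondrial sums held 24, 142, 42 and 395 barcodes of the 91, 242, 184 and 566 with the B cell list, since haemoglobin UMIs were widespread. Of 9124 genes, 921 (10.1%) were higher and 1647 (18.1%) lower, with a median gene at 0.04. The split was 3387 higher and 1016 lower under total scaling, where the median gene moved to 0.52, and 2085 and 2555 of 12663 genes without use of the erythroid list. DESeq2 called 234 higher and 1299 lower. The same broad pattern held, with 79 of 80 ribosomal protein genes lower (median -2.48), 72 of 78 oxidative phosphorylation genes lower (-1.78) and all 5 heat shock genes lower (-1.50). Of the nuclear-retained RNAs Neat1 was higher (0.62 ± 0.23, edgeR adjusted p = 0.03). Of 6 B cell genes Cd79a was lower (-1.27 ± 0.35, edgeR adjusted p = 0.0021) and the others were not called. These genes also chose the barcodes, at unequal depth, so their results are not independent of that choice. Calls rested on 2 libraries: without P-HC24 302 genes were higher and 1314 lower, and without I-HC32 182 and 750.

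Mast cell proteases led the increases even among B-marker cells. Cma1 (chromosome 14, 56178908 to 56182132) stood at 47.3, 1218, 466 and 202 CPM against 7.80, 19.9, 7.71 and 45.6 (log2 change 3.92 ± 0.27, edgeR adjusted p = 2.3e-44). Cpa3 (3.89), Mcpt4 (3.75), Tpsb2 (3.69) and the monocyte-attracting chemokine Ccl2 (3.60) followed. At least 2 mast cell genes were held by 0, 15, 4 and 53 of these B-marker barcodes (0%, 10.6%, 9.52% and 13.4%), against 0.601%, 5.73%, 1.95% and 13.4% of kept B-marker cells. At least 4 were held by 0, 6, 2 and 5 of them. In I-HC32 the shares with at least 2 genes were thus alike, but at unequal depth, while the Cma1 level was over 4-fold higher. These values do not give the level per holding barcode. The largest decreases were Sap30, at least 4.32-fold lower (3.09-fold under total scaling), and Gemin6, at least 3.48-fold lower (2.49-fold), both at 0 UMIs in the class. Rfc4, Praf2 and Ift22 followed, with 1 UMI each.

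A second B-marker comparison left out barcodes with the mast cell list and did not use the erythroid list, an alternative chosen after seeing the data. It held 91, 214, 175 and 438 high-mitochondrial barcodes and called 1341 of 12578 genes higher (10.7%) and 2646 lower (21.0%). All 4 mast cell genes tested were still higher there, with a median of 1.52 against 3.82 in the first B-marker comparison. Leaving out list holders caps a barcode at 1 gene of that list at any depth, which weighs more on the deeper kept cells. Erythroid genes, whose holders were left out of the first comparison only, were 4 of 4 higher there (median 1.72) and 5 of 5 lower here (-1.18). The mast cell increase here is therefore not independent of the rule. The largest increases, by the rule for named genes, were then Cacna1c (2.68 ± 0.50), a calcium channel, Prkcq (2.52 ± 0.53) and Cd247 (2.51 ± 0.49), both of T cell receptor signalling, Kcnj13 (2.06 ± 0.53) and Pard3bos1 (2.03 ± 0.26). The strongest of these rested on few molecules, 24 UMIs of Cacna1c in the class. Holders of the T cell list were left out too, so Prkcq and Cd247 are subject to the same limit. Gng13, Zfp358, Cbr3, Nmral1 and Cdca7l, at 0 UMIs, led the decreases with bounds of 2.34-fold to 5.71-fold (1.49-fold to 3.64-fold under total scaling).

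In T-marker cells, taken without the erythroid list for the same reason, 20, 39, 33 and 47 high-mitochondrial barcodes entered. Of 10322 genes, 112 (1.09%) were higher and 1070 (10.4%) lower. Of 80 ribosomal protein genes 79 were lower (median -2.57). Of 6 cytotoxic genes 5, of 6 NK genes 5 and of 7 T cell genes 4 were lower. The T cell genes also chose these barcodes, so their calls are not independent of that choice. Among T-list holders, Cd8a was detected in 15.0%, 18.2%, 11.8% and 14.3% against 45.2%, 39.7%, 35.3% and 20.8%, and Nkg7 in 4 of the 20 in P-LC24 and in 34.1%, 38.2% and 25.0% of the others, against 69.4%, 66.8%, 66.7% and 50.3%, at unequal depth. All 4 mast cell genes tested were higher, with log2 changes of 3.99 to 4.46. At least 2 mast cell genes were held by 0, 2, 2 and 10 of these T-marker barcodes (0%, 5.13%, 6.06% and 21.3%). Among kept T-marker cells the shares were 0.630%, 4.56%, 0.993% and 13.3%, at unequal depth. Among genes with at least 200 UMIs and the same direction in every library, Tpsb2 led the increases (4.16 ± 0.39, edgeR adjusted p = 1.5e-23), followed by Slc18a2, the vesicular monoamine transporter (2.30 ± 0.69, edgeR adjusted p = 0.011), Spon1 (1.98) and Aldh7a1 (1.90). They rested on few molecules in the high-mitochondrial sums, with 58 UMIs of Tpsb2, 11 of Slc18a2, 21 of Spon1 and 15 of Aldh7a1. Ech1, Mrpl32, Phf11b, Trdc and Borcs8 were at 0 UMIs and at least 4.22-fold to 6.35-fold lower on the TMM scale (2.51-fold to 3.77-fold under total scaling).

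Gene length, introns included, separated the genes that were called. Of 14865 genes tested, 14776 had a length in the annotation. Of 1784 genes under 5 kb, 6.17% were higher and 36.7% lower, whereas of 1038 genes over 150 kb, 35.3% were higher and 1.16% lower. Genes called higher had a median length of 62.4 kb, those called lower 11.9 kb and all genes 24.1 kb. In B-marker cells the shares were 4.17% and 55.3% under 5 kb and 29.9% and 0.325% over 150 kb. Genes over 150 kb took 21.1%, 14.1%, 17.9% and 19.1% of the non-mitochondrial UMIs of tested genes in high-mitochondrial barcodes, against 9.51%, 6.65%, 9.23% and 8.53% in kept cells. Length goes with function and with level, and these were not separated.

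**Figure D5:**
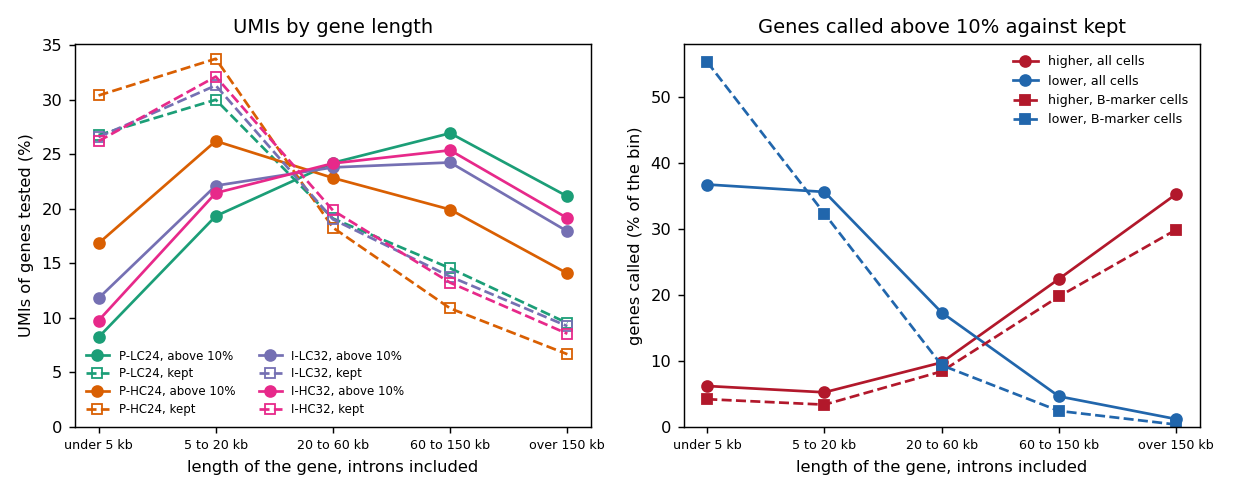
Left, share of the non-mitochondrial UMIs of tested genes (%) by gene length, for high-mitochondrial barcodes (above 10%, filled) and kept cells (open) in each library. Right, genes called higher (red) or lower (blue) in high-mitochondrial barcodes as a percentage of the genes in each length bin, in all cells (solid) and B-marker cells (dashed); calls for higher climb from 6.17% under 5 kb to 35.3% over 150 kb and calls for lower drop from 36.7% to 1.16% in all cells.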

How the data were processed

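Gene by barcode UMI count matrices of 4 libraries were deposited as raw counts. Per the study's methods and the submitters' processing notes, the authors made them with Cell Ranger 9.0.1 on GRCm39 from Chromium 3′ v3.1 libraries. The authors' ambient RNA correction, doublet removal and Seurat 5.3 quality control were not applied here, so free RNA and doublets remain. From the counts, barcodes were classed by UMIs, genes and mitochondrial share, and a marker list was called held when at least 2 of its genes had a UMI. Members, lists and tests were chosen with earlier results of these data known. Depth differed between classes, so list shares were recomputed after thinning each barcode to 500, 1000 or 2000 non-mitochondrial UMIs (seed 7), leaving out shallower barcodes. Intervals are exact Clopper-Pearson at 95%. Non-mitochondrial counts were summed by class and library and tested with edgeR 4.0.16 (R 4.3.3, filterByExpr, TMM, quasi-likelihood, library as a term); DESeq2 1.42.0 was an alternative. The library term pairs the 2 sums of 1 library. The test was checked on simulated counts with 200 changed genes and a dispersion of 0.05. It recovered 41% of 2-fold and 98% of 4-fold changes in all cells, and 34% and 96% in B-marker cells. The simulated counts held no broad shift in RNA make-up and no shared mice, so the check gives no error rate for these data. T-marker cells reached 20 barcodes in 2 libraries with the erythroid list and were fitted without it. Gene lengths and coordinates come from GENCODE vM39 (GRCm39). Named genes were the 10 largest increases and decreases in all cells, and 5 in each marker class, among genes past the threshold with at least 200 UMIs and 1 direction in every library. Genes named Gm or Rik were left out. Results of some genes covered by these rules are not reported here.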

Additional observations from a re-analysis of the deposited data

Results flagged for a closer look

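For the peritoneal macrophage list the difference in share between high-mitochondrial barcodes and kept cells took opposite signs at the 2 time points. At week 24 it was -0.895 percentage points for P-LC24 and -4.14 for P-HC24. At week 32 it was 0.823 for I-LC32 and 0.0400 for I-HC32. For the Kupffer cell list it took opposite signs by cholesterol history, with 0.222 for P-LC24 and 0.573 for I-LC32 against -3.21 for P-HC24 and -0.292 for I-HC32. Neither difference between groups was tested, and several of these values are small beside their counting error.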

How the results depend on the processing

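The share of high-mitochondrial barcodes depended on the limit: at 5% it was 14.29%, 50.91%, 37.26% and 31.48% in the 4 libraries (in the order of the report), at 15% 1.322%, 3.197%, 1.852% and 6.520%, and at 20% 0.5117%, 2.177%, 1.333% and 3.457%. I-HC32 was thus highest at 10%, 15% and 20%, and P-HC24 at 5%, where I-LC32 also exceeded I-HC32. For the marker lists, 185 values kept the sign of the difference and 37 changed it, where the sign is that of the mean over libraries. The mast cell and basophil list kept its sign at the limit of 5% by 0.1431 points only, with 1 library higher and 3 lower. With 1 gene per list its difference was 2.198 points, with 2 libraries higher and 2 lower. Thinned to 500, 1000 and 2000 UMIs, the mean difference in percentage points became 0.1814, 2.224 and 3.752 for B-1 cells, 0.05918, 0.4228 and 0.1045 for plasma cells, 0.1698, 1.075 and 6.506 for peritoneal macrophages, 0.156, 0.201 and 2.605 for Kupffer cells and 13.23, 18.08 and 18.67 for the erythroid list. At 500 and 1000 UMIs it became 2.023 and 0.4813 for follicular B cells. At 1000 and 2000 UMIs it became 0.570 and 3.138 for B cells, 0.714 and 8.110 for macrophages, 0.1779 and 0.4253 for dendritic cells and -0.02952 and -0.005018 for sinusoidal endothelial cells, and at 2000 UMIs 0.126 for CD4 and CD8. At the limit of 5% it became 20.57 for B cells, 3.280 for follicular B cells, 6.717 for B-1 cells, 6.094 for plasma cells and 0.006835 for bile duct cells. Without barcodes that held 2 or more of the B, T, macrophage, neutrophil and erythroid lists it became 0.4516 for peritoneal macrophages, 8.188 for the erythroid list and -0.04432 for endothelial cells. With 1 gene per list it became -21.90 for hepatocytes and -0.3386 for endothelial cells, and with 3 genes -0.0389 for the latter.

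Counts of genes called in all cells changed by over 1.5 times with total scaling (5773 higher, 1622 lower), without the library term, that is with no replicate block (956 higher), at the limit of 20% (900 higher) and without barcodes that held 2 or more of those 5 lists (2029 lower). Leaving out 1 library gave 1111 to 1706 higher and 2546 to 3417 lower, the lowest values without I-HC32. In B-marker cells the counts became 552 higher with DESeq2 size factors, 3387 higher and 1016 lower with total scaling, 234 higher with DESeq2 and 370 higher with no filter. They were 565 higher and 325 lower at the limit of 5%, 2085 higher and 2555 lower without use of the erythroid list, 1960 higher with that and 1000 to 5000 UMIs, and 2646 lower without both the use of the erythroid list and the holders of the mast cell list. Leaving out 1 library gave 182 to 1026 higher and 750 to 1723 lower. The causes were not tested. The last 3 alternatives were chosen after seeing the data. Of the genes named, 455 values stayed called in the same direction, 56 were no longer called, and Gemin6 reversed to 0.1179 at the limit of 5%. At that limit 117 genes called higher in all cells and 288 called lower switched direction. B-marker cells at the limit of 20% and macrophage-marker cells were not fitted, since fewer than 3 libraries had 20 such barcodes. P-LC24 had the fewest high-mitochondrial barcodes (154) and the fewest non-mitochondrial UMIs in them (267885). The lowest median per barcode was in P-HC24 (1032).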
